A study of Mus musculus with 4 samples.

Results

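The 5′UTR clusters were clusters of eCLIP-seq reads of the RNA-binding protein IGF2BP3 in mouse testis that lay in the untranslated leader of an mRNA. A cluster belonged to them where its centre fell, on the same strand, in a 5′UTR of a protein-coding transcript (GENCODE M21 basic set, mm10) and in no coding sequence (CDS) or 3′UTR of any such transcript. By this rule, 7968 of 337234 clusters in replicate 1 (2.36%) and 6546 of 216354 in replicate 2 (3.03%) were 5′UTR clusters. They lay in 4521 genes in replicate 1 and 3997 in replicate 2. Both replicates had 2986 of these genes in common, which was 66.0% of the replicate 1 list and 74.7% of the replicate 2 list.

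The RNA came from testes of wild type C57BL/6 males at 8 weeks of age, with germ cells and somatic cells together, so the number of cells that held an mRNA and its amount per cell cannot be told apart. In eCLIP, UV light (here at 254 nm) links proteins to the RNA they touch, the RNA is cut into fragments, and the fragments bound to 1 protein are pulled down with an antibody and sequenced. In each of 2 replicates, the immunoprecipitate made with an IGF2BP3 antibody (IP) was set against a size-matched input of the lysate with no antibody (SMInput). The listed values of the clusters rested on 5133438 usable IP reads and 8706391 SMInput reads in replicate 1, and on 4637612 and 16696122 in replicate 2.

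IGF2BP3 belongs to a family of RNA-binding proteins that was named for binding to the leader of the IGF2 mRNA, and its members are known to act on the stability, transport and translation of mRNAs. The small ribosomal subunit scans a 5′UTR from the cap to the start codon, and the folding of the leader, start codons within it and bound proteins can set how much protein an mRNA yields. In the testis, many mRNAs of spermatids are stored with proteins and translated later.

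Few of the 5′UTR clusters passed the thresholds for enrichment in the IP, and in replicate 1 their share was near that of all clusters. A cluster was called where the deposited log2 fold change of IP over SMInput (log2FC, each library scaled to its usable reads) was at least 2 and the −log10(P value) at least 2. In replicate 1, 405 of the 5′UTR clusters were called, or 5.08% (95% Wilson interval 4.62 to 5.59%), beside 4.92% of all clusters. In replicate 2, 564 were called, or 8.62% (7.96 to 9.32%), beside 13.2% of all clusters. The share was thus near that of all clusters in replicate 1 and below it in replicate 2. In each depth class from 10 reads up it was below that of all clusters in both replicates, at 8.40% against 15.3% for 20 to 49 reads in replicate 1 and 7.70% against 14.7% in replicate 2. No test between groups was run, the intervals cover counting error only, and clusters of 1 table are not replicates.

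Among the parts of mRNAs, the 5′UTR stood close to the CDS and far below the 3′UTR. CDS clusters were called in 5.26% of cases in replicate 1 and 7.94% in replicate 2, and 3′UTR clusters in 19.5% and 34.6%. Introns gave 1.94% and 10.8%, so their order relative to the 5′UTR differed between the replicates. The order of 5′UTR and CDS in replicate 1 turned with a log2FC threshold of 1, at which 10.2% of 5′UTR clusters and 9.76% of CDS clusters were called. That threshold raised the called 5′UTR clusters to 816 in replicate 1 and 1202 in replicate 2, while thresholds of 3 for both values left 84 and 88. At these stricter thresholds the order in replicate 2 turned as well, with 1.34% of 5′UTR and 1.47% of CDS clusters called.

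The whole distribution of 5′UTR clusters lay close to that of the CDS. The median log2FC of 5′UTR clusters was 0.76 in replicate 1 (quartiles 0.18 and 1.54) and 0.98 in replicate 2 (quartiles 0.40 and 1.63). The median of CDS clusters was 0.76 and 0.93, and that of 3′UTR clusters 1.76 and 1.85. More scaled reads in the IP than in the SMInput were found for 81.8% of 5′UTR clusters in replicate 1 and 88.6% in replicate 2, fewer than the 91.8% and 93.4% of all clusters. Among called 5′UTR clusters the median log2FC was 2.67 and 2.59, and the highest was 5.62 and 6.37.

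Per kilobase of annotation, leaders carried few called clusters. The merged 5′UTRs held 1.20 clusters per kilobase in replicate 1 and 0.99 in replicate 2, and 0.061 and 0.085 called clusters per kilobase. The CDS held 0.131 and 0.162 called clusters per kilobase, and the 3′UTRs 0.219 and 0.320. The length of the 5′UTRs included bases that also lay in a CDS or 3′UTR of another transcript. By the rule no 5′UTR cluster could be centred there, which lowers the values of leaders by an amount that was not measured. Of all called clusters, 2.44% in replicate 1 and 1.98% in replicate 2 were 5′UTR clusters.

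Most 5′UTR clusters were short and rested on few reads, though less so than clusters as a whole. Their median width was 55 bases in replicate 1 and 59 in replicate 2, beside 42 and 47 for all clusters. Where the reads could be recovered from the listed values, the median 5′UTR cluster held 7 IP reads and 6 SMInput reads in replicate 1, and 7 and 13 in replicate 2. For all clusters the medians were 4 and 2 in replicate 1, and 4 and 6 in replicate 2. Called 5′UTR clusters held a median of 15 IP reads and 4 SMInput reads in replicate 1, and 10 and 7 in replicate 2. Fewer than 10 IP reads stood behind 74 called clusters of replicate 1 (18.4%) and 262 of replicate 2 (47.0%). Beside 1 SMInput read, the fewest IP reads that could pass both thresholds were 7 in replicate 1 and 4 in replicate 2.

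The distance between 5′UTR and 3′UTR was present at each depth from 5 reads up. Among clusters with 10 to 19 reads, 9.66% of those in 5′UTRs, 9.04% of those in the CDS and 28.9% of those in 3′UTRs were called in replicate 1. In replicate 2 these shares were 11.4%, 10.4% and 41.8%. From 20 reads up, the 5′UTR was below the CDS in each class of replicate 1, with 8.07% against 12.7% at 50 to 99 reads and 15.2% against 26.2% at 100 or more. In replicate 2 the shares were 7.70% against 7.87% at 20 to 49 reads, 9.32% against 9.28% at 50 to 99 and 8.78% against 15.2% at 100 or more.

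Called 5′UTR clusters were poorer in GC than the others. In windows of 50 genomic bases around the cluster centre, the median GC content was 56.0% for called and 64.0% for other 5′UTR clusters, in each replicate. The called share fell from 7.59% of 5′UTR clusters below 50% GC to 2.94% of those with 70% GC or more in replicate 1. In replicate 2 it fell from 14.2% to 3.63%. The intervals of these classes were apart, at 6.35 to 9.06% and 2.38 to 3.63% in replicate 1 and 12.3 to 16.2% and 2.95 to 4.46% in replicate 2. Limiting the count to clusters with at least 10 reads gave 12.6% and 3.71% in replicate 1, and 14.4% and 3.41% in replicate 2. The GC classes were chosen after values of these clusters had been seen, and the part of GC content in library preparation or alignment was not tested.

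Below 60% GC, 5′UTR clusters were called more often than CDS clusters. Below 50% GC, 7.59% of 5′UTR clusters were called in replicate 1, against 5.84% of CDS clusters (5.61 to 6.09%), and 14.2% against 9.05% (8.73 to 9.39%) in replicate 2. Between 50% and 60% GC, 7.94% of 5′UTR clusters were called in replicate 1 (6.72 to 9.35%), against 5.05% of CDS clusters (4.82 to 5.29%). In replicate 2 the shares were 13.3% (11.6 to 15.2%) and 7.59% (7.28 to 7.91%). From 60% to 70% GC the order differed between the replicates, with 3.97% (3.20 to 4.92%) against 4.79% (4.48 to 5.13%) in replicate 1 and 8.02% (6.79 to 9.45%) against 6.94% (6.53 to 7.38%) in replicate 2. At 70% GC or more, 2.94% of 5′UTR clusters (2.38 to 3.63%) and 3.62% of CDS clusters (3.06 to 4.28%) were called in replicate 1. In replicate 2 it was 3.63% (2.95 to 4.46%) and 4.69% (3.97 to 5.53%), so the intervals of both regions overlapped in this class. The 3′UTR stayed above both in every GC class, with 13.2% and 23.5% called at 70% GC or more. Across 5′UTR clusters, the rank correlation of GC content with log2FC was −0.23 in replicate 1 (n = 7968) and −0.29 in replicate 2 (n = 6546). Clusters of 1 gene share its mRNA level, and all clusters of a replicate share its libraries. In the CDS the same correlation was −0.10 (n = 89392) and −0.11 (n = 73128).

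In windows of 50 bases, the short motifs searched differed by less than 5 points between called and other 5′UTR clusters. They were GAACA and AAACC, which the study names, GGAC (the core of the m6A consensus), CACA (a CA-rich element) and ATG. GAACA and AAACC stood in less than 5% of these windows, so for them a difference of 5 points was not possible. CACA stood in 13.3% of called and 10.1% of other 5′UTR windows in replicate 1, and in 13.5% and 9.13% in replicate 2. That was less than in the windows of all clusters, 17.9% and 16.2% of which held it. On the antisense strand CACA was found in 19.5% of called and 18.9% of other 5′UTR windows in replicate 1, and in 21.6% and 18.8% in replicate 2. GAACA was in 2.96% of called and 2.95% of other windows in replicate 1 (4.48% of all clusters), and in 3.19% and 2.57% in replicate 2 (4.09% of all clusters). AAACC was in 3.70% and 2.19% in replicate 1, and in 3.01% and 2.01% in replicate 2, while 3.43% and 3.09% of all clusters held it. The intervals of called leaders held the share of all clusters for GAACA in both replicates, at 1.70 to 5.11% and 2.03 to 4.99%, for AAACC in both, at 2.26 to 6.02% and 1.89 to 4.77%, and for CACA in replicate 2, at 10.9 to 16.5%.

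GGAC was more frequent in leaders than in clusters as a whole, on both strands. It stood in 17.3% of called and 21.8% of other 5′UTR windows in replicate 1, and in 20.4% and 21.7% in replicate 2, against 14.0% of all clusters in both replicates. The interval of called leaders in replicate 1, 13.9 to 21.3%, held the share of all clusters. The difference between called and other 5′UTR windows was −4.55 points in replicate 1 (95% interval −8.05 to −0.46). In replicate 2 it was −1.36 points (−4.65 to 2.31). At 70% GC or more the order turned, at 27.4% of called and 23.9% of other windows in replicate 1 and 27.6% and 24.1% in replicate 2. In replicate 2 it also turned below 50% GC, at 17.1% and 11.7%, and between 60% and 70% GC, at 27.9% and 26.6%. In the remaining GC classes called windows held GGAC less often. On the antisense strand GGAC stood in 21.4% and 22.3% of all 5′UTR windows, against 14.9% and 15.5% of the windows of all clusters. The median GC content of these windows was 64.0% for 5′UTR clusters and 48.0% for all clusters, in each replicate. The part of GC content in the excess of GGAC in leaders was not tested. An ATG, which in a leader can act as an upstream start codon, was in 37.0% of called and 32.4% of other windows in replicate 1, and in 34.6% and 32.1% in replicate 2. All clusters had it in 53.5% and 52.0% of windows. Below 60% GC the order of called and other windows turned. Between 50% and 60% GC the shares were 40.3% and 42.9% in replicate 1 and 36.5% and 41.0% in replicate 2. In replicate 2 the order also turned at 70% GC or more, at 17.24% and 20.02%. Between 60% and 70% GC both shares of that replicate were 29.46%. Within no GC class of replicate 2 did called windows thus hold ATG more often. In replicate 1 they did so in these higher classes, at 31.25% and 30.3% between 60% and 70% GC and 20.2% and 18.3% above. For CACA the order turned only below 50% GC. It stood there in 12.5% of called and 16.7% of other windows in replicate 1, and in 14.7% and 14.8% in replicate 2. Between 50% and 60% GC, CACA stood in 20.2% and 15.6% in replicate 1 and in 15.7% and 14.9% in replicate 2. In the bases of the cluster itself, called 5′UTR clusters exceeded the others by 9.13 and 5.91 points for ATG and by 7.05 and 7.09 points for CACA. There the difference for GGAC in replicate 1 went from −4.55 to 0.21 points. Wider clusters offer more bases to search, and the part of width in these differences was not tested. The called share was 3.87% and 6.69% of 5′UTR clusters below 30 bases wide. It was 6.05% and 9.49% at 60 to 99 bases, and 5.55% and 8.89% at 100 or more. On the antisense strand the called 5′UTR windows held GAACA in 5.43% and 6.21%, AAACC in 4.44% and 5.14%, GGAC in 19.5% and 17.9%, and ATG in 42.7% and 36.0% of cases. The other 5′UTR windows held them on that strand in 3.61% and 4.20%, 4.15% and 4.30%, 21.5% and 22.7%, and 32.1% and 30.7%.

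Of all 256 words of 4 bases, those with the largest excess in called 5′UTR clusters were rich in pyrimidines. These words were picked after their values were seen. CTCT stood in 35.3% of called and 24.6% of other 5′UTR windows in replicate 1, and in 32.6% and 24.2% in replicate 2. TCTG stood in 33.1% and 25.2% in replicate 1, and in 35.5% and 24.8% in replicate 2. Words of G and C had the largest deficits, such as CCGC, with 20.7% and 33.7% in replicate 1 and 18.6% and 34.7% in replicate 2. By the smaller difference of the replicates, CACA ranked 47 among the 256 words and GGAC ranked 218.

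Called clusters were not gathered at the start codon. In the spliced leader, 115 of the 405 called clusters of replicate 1 had their centre within 50 bases of the start codon, or 28.4% (24.2 to 33.0%), against 31.0% of the other 5′UTR clusters (29.97 to 32.06%). In replicate 2 it was 136 of 564, or 24.1% (20.8 to 27.8%), against 32.4% (31.3 to 33.6%). Only in replicate 2 were these intervals apart. The called share there rose from 6.60% of clusters in the last 25 bases of the leader to 11.3% at 200 to fewer than 400 bases before the start codon, and in replicate 1 from 4.63% to 5.61%. Below 60% GC, 9.23% of clusters within 50 bases and 16.9% of those 200 or more bases away were called in replicate 2, and 6.49% and 9.01% in replicate 1. From 60% GC up the shares were 4.71% (3.66 to 6.04%) and 6.95% (5.51 to 8.73%) in replicate 2, with overlapping intervals, and 3.36% and 3.65% in replicate 1.

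The values changed little across the edge that the rule drew at the start codon. Of 5′UTR clusters with their centre in the last 10 bases before it, 23 of 487 were called in replicate 1 and 28 of 422 in replicate 2. Of CDS clusters in the first 10 bases of the coding sequence, 25 of 554 and 23 of 419 were called. The median log2FC was 0.76 on both sides in replicate 1, and 0.85 before and 0.92 after the start codon in replicate 2.

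Neither the 5′ end of the leader nor its length went with an even trend. Within 25 bases of the annotated 5′ end, 5 of 219 clusters were called in replicate 1 (2.28%) and 20 of 164 in replicate 2 (12.2%). Within 50 bases, 6.02% were called in replicate 1 (4.42 to 8.16%) and 11.9% in replicate 2 (9.39 to 14.96%). Of clusters in leaders of 400 bases or more, 6.25% and 10.3% were called, against 4.33% and 7.77% in leaders of 200 to fewer than 400 bases and 5.83% and 9.32% in leaders below 100 bases. The share was higher where another coding transcript of the gene had an intron at the centre. It was 5.84% against 4.82% in replicate 1 and 11.4% against 7.64% in replicate 2. The intervals overlapped in replicate 1, at 4.91 to 6.93% and 4.30 to 5.39%, and were apart in replicate 2. Clusters centred in such an intron made up 26.0% and 25.6% of the 5′UTR clusters. Reads of the leader and of unspliced RNA cannot be told apart there. A small RNA gene lay at the centre of 24 and 21 clusters, of which 0 and 2 were called.

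Clusters called in 1 replicate often went without a call in the other, in leaders and in the CDS to a similar degree. Of the 5′UTR clusters, 4139 in replicate 1 (51.9%) and 3978 in replicate 2 (60.8%) shared at least 1 base with a 5′UTR cluster of the other replicate. Over the 4598 overlapping pairs, Pearson's r of log2FC was 0.59, with pairs of 1 gene sharing the level of its mRNA. It rose with depth, from 0.18 over 445 pairs with fewer than 10 reads in the replicate with fewer to 0.87 over 239 pairs with 100 or more. Of the 265 called clusters of replicate 1 with an overlapping cluster, 54.0% were called in replicate 2 as well, against 6.14% of 3874 that were not called in replicate 1. For the CDS these shares were 51.3% and 6.08%, and for the 3′UTR 74.0% and 28.0%.

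Calls in both replicates were found at 103 sites of 83 genes, where overlapping called clusters were joined. They held 143 called 5′UTR clusters of replicate 1 (35.3%) and 134 of replicate 2 (23.8%). The median site spanned 105 bases, and 76 of the sites lay in the first exon of the transcript. At 93 sites the cluster with the most IP reads held at least 10 in both replicates, and at 22 it held at least 50. In 37 sites the centre also lay in an intron of another coding transcript of the gene, where reads of unspliced RNA cannot be told apart. Among the genes named below, this held for sites of Chtop, Btf3l4, Smim24, Rpl15, Eif5a, Akap3, Cep112 and Pla2g6. At 19 sites log2FC was at least 3 in both replicates. The median GC content of the 50-base windows at the highest clusters of these sites was 54.0% in each replicate, below the 64.0% of 5′UTR clusters as a whole.

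By the smaller log2FC of the replicates, the leader of Spatc1 came first. Spatc1 encodes speriolin, a centrosomal protein of spermatogenic cells. Its site (chr15:76268135-76268147, plus strand) had a log2FC of 5.58 in replicate 1 (113 reads of the IP against 4 of the SMInput) and of 6.37 in replicate 2 (69 against 3). It lay in exon 1, with 34 bases between its centre and the start codon in a leader of 83 bases. The site of BC048671 (chr6:90301857-90301956, plus strand) followed, with 5.41 (100 IP and 4 SMInput reads) and 5.95 (86 and 5). These values came from clusters that did not overlap, at chr6:90301857-90301860 in replicate 1 and chr6:90301923-90301956 in replicate 2. Both sites, of Spatc1 and BC048671, thus had large read numbers for leaders, in each replicate.

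Prr27 had a site with a log2FC of 5.62 and 4.57 (chr5:87825705-87825854, plus strand), where the cluster of replicate 1 held 29 IP reads and 1 SMInput read. Gpr4, a proton-sensing receptor, had 4.08 and 4.17 (chr7:19221846-19221925, plus strand), but only 5 IP reads and 1 SMInput read in replicate 2. A further site of BC048671 (chr6:90302759-90302810) had 3.70 and 4.40 and ended near the start codon, 12 bases from its centre. Tex22, a gene named for its expression in testis, had 3.57 and 3.95 (chr12:113074654-113074789, plus strand). Tmem225, a membrane protein of sperm, had 3.82 and 3.54 (chr9:40148168-40148276, plus strand). Log2FC was thus above 3 in both replicates at each of these sites, from very different read numbers.

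Of the other sites among the 12, that of Zdhhc5, a palmitoyltransferase, had a log2FC of 3.50 and 4.39 (chr2:84710589-84710822, minus strand), with 100 IP and 15 SMInput reads in replicate 1 and 99 and 17 in replicate 2. Slc25a35, of the mitochondrial carrier family, had 3.44 and 4.21 (chr11:68968221-68968359, plus strand). Mt1, a metallothionein that binds zinc and copper, had 3.44 and 3.83 (chr8:94179181-94179208, plus strand). Lrrc46, which sperm flagella need, had 3.54 and 3.31 in clusters that did not overlap (chr11:97041113-97041330, minus strand). Chtop, a factor of mRNA export, had 3.67 and 3.26 (chr3:90506566-90506655, minus strand). Each of these sites passed the thresholds in both replicates by more than 1 on the log2 scale.

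Among all 103 sites, Smim24 had the most IP reads. Its leader (chr10:81393662-81393771, plus strand) had at least 581 and 694 IP reads in the deepest cluster of each replicate, where log2FC was 2.13 and 2.89. It was followed by a more downstream site of Zdhhc5 (chr2:84710400-84710546, 12 bases from the start codon to its centre), with a log2FC of 2.46 in the cluster of 214 IP reads in replicate 1 and of 2.93 in that of at least 303 in replicate 2. Lrrc46 had 209 and 195 IP reads in its deepest clusters, at 2.80 and 2.74. A site of Mt1 (chr8:94179253-94179316) had 225 and 147, with a log2FC of 2.29 and 2.49 in these clusters. Fhl4, a LIM domain protein of the testis, had 146 and 148 IP reads (chr10:85099117-85099291, minus strand). Lrrc46 thus stood in both lists, and Zdhhc5 and Mt1 did so with different sites.

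Some leaders held several such sites. BC048671, Chtop, Btf3l4 and Slc2a5, which encodes a fructose transporter, had 3 each. Of the 12 genes with 2 sites, Prr27 had the highest log2FC. In BC048671, all 7 clusters of the leader in replicate 1 and all 5 in replicate 2 were called. The same held for Mt1, with 5 of 5 in each replicate. In Slc2a5, 3 of 6 and 6 of 9 clusters were called, with sites from 2.13 to 2.91 in replicate 1 and from 2.42 to 3.95 in replicate 2 (chr4:150119311-150119706, plus strand). In Btf3l4, 3 of 4 were called in each replicate (chr4:108833143-108833589, minus strand).

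At the other end, 286 sites of 273 genes had overlapping 5′UTR clusters with a log2FC of 0 or less in both replicates. For such clusters the listed values give only the smallest read numbers that fit. Ordered by the SMInput reads of the replicate with fewer, 2410002F23Rik came first (chr7:44250157-44250216, plus strand), with at least 243 and 383 SMInput reads and a log2FC of −1.23 and −0.58. The centre of this site lay in the small nucleolar RNA gene Snord88a. Phkg2, the catalytic subunit of phosphorylase kinase in testis and liver, had −0.77 and −0.57 (chr7:127573594-127573748, plus strand). Ybx1, an RNA-binding cold shock protein, had −0.80 and −0.15 (chr4:119294369-119294504, minus strand). Odf2, of the outer dense fibres of the sperm tail, had −0.72 and −0.21 (chr2:29890836-29891003, plus strand). Nasp, a histone chaperone, had −0.17 and −0.11 (chr4:116627358-116627518, minus strand). Leaders with ample reads in the input were thus found without enrichment in the IP.

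Sequences of 30 bases are shown from 10 of the 12 sites with the largest smaller log2FC of the replicates, centred on the bases that the highest clusters of both replicates shared. The first site of BC048671 and that of Lrrc46 are left out, since these clusters did not overlap. Each sequence lay wholly in the 5′UTR and reads 5′ to 3′ in mm10. Capitals mark the motifs named above other than ATG, and GGAC and CACA can overlap. Of the 10 sequences, 2 held capitals.
Spatc1, chr15:76268122-76268151: ccaggtgcagtgccctctcttgggctgcac
Prr27, chr5:87825725-87825754: tcacttctcccagactttatccttcgtaat
Gpr4, chr7:19221885-19221914: tttgtgctctggttgtgtagatagcccatt
BC048671, chr6:90302767-90302796: tgtgcaGGACACAgcctaactccctctgtg
Tex22, chr12:113074705-113074734: ctgtcccggagcctacagagcccttcccag
Tmem225, chr9:40148207-40148236: cctctgccaacatctctgcagtcagtgaac
Zdhhc5, chr2:84710619-84710648: tggtttttaatcagttgaaatcacctttcc
Slc25a35, chr11:68968292-68968321: ctctgattctttttctgttgttgcttttct
Mt1, chr8:94179177-94179206: gcAAACCctttgcgcccGGACtcgtccaac
Chtop, chr3:90506614-90506643: tccttcctcctgtttgtcctttgaatgaac

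Of all windows of that length at 5′UTR cluster centres, 21.5% of called and 21.3% of other clusters held at least 1 of the 4 motifs in replicate 1, and 23.2% and 19.7% in replicate 2. The 10 sequences had a median GC content of 48.3%, from 33.3 to 66.7%. For comparison, the sequences of the next lines are centred on the 5 sites without enrichment that are named above.
2410002F23Rik, chr7:44250171-44250200: cctgaagacatggtgcccccagGGACcttt
Phkg2, chr7:127573656-127573685: ccctgccctgcttccctccctcccccctag
Ybx1, chr4:119294422-119294451: gccccaccgccgccgccggcctagtcacca
Odf2, chr2:29890904-29890933: cctctgggtccccctgagcagagcctgccg
Nasp, chr4:116627424-116627453: ggaattctctggttttcttcgcaggcagtg
Their median GC content was 73.3%, from 50 to 80%, so the ranges of both sets overlapped.

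Within the same mRNA, the 3′UTR was in most cases more enriched than the leader. Of 3761 genes with clusters in both regions in replicate 1, 2837 (75.4%) had a higher median log2FC in the 3′UTR, and of 3329 in replicate 2, 2686 (80.7%). The median difference was 0.81 and 0.92. Of 2471 genes measured in both replicates, 1751 had the 3′UTR above the 5′UTR in both, and 195 in neither. Between leader and CDS the order was nearly even, with the CDS higher in 54.6% of 4190 genes and 54.4% of 3674 genes.

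Genes with a called leader had calls elsewhere in the mRNA more often than the other genes with leader clusters, and their excess was larger in the CDS than in the 3′UTR. Of 301 genes with a called 5′UTR cluster in replicate 1, 44.5% had a called CDS cluster, against 24.6% of the 4220 other genes with 5′UTR clusters. In replicate 2 it was 45.7% of 444 genes against 30.9% of 3553. No call in the CDS or 3′UTR was found for 110 of the 301 genes (36.5%) and 128 of the 444 (28.8%), against 52.1% and 39.97% of the other genes. For called 3′UTR clusters the shares were 45.2% against 35.9% in replicate 1, and 50.5% against 48.3% in replicate 2. The 3′UTR intervals of replicate 2 overlapped, at 45.8 to 55.1% and 46.7 to 49.97%. Abundant mRNAs give more clusters in every region, and the part of mRNA level in these shares was not tested. The 104 genes with a called leader in both replicates were 34.6% of the 301 and 23.4% of the 444.

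The enriched leaders differed in what the rest of the mRNA showed. Of the 83 genes with shared sites, 43 had a called CDS cluster in both replicates and 37 a called 3′UTR cluster in both, and 10 had no CDS or 3′UTR call in either replicate. Those 10, named for that after their values were seen, were 1700003F12Rik, Btf3l4, Cep112, Gpr4, Gtsf1l, Pla2g6, Slc25a35, Tex22, Trip4 and Ttll8. Gpr4 had no 3′UTR cluster and 1 CDS cluster in each replicate, and Tex22 no 3′UTR cluster with 4 and 2 CDS clusters, so few clusters could be called there. In Btf3l4, in turn, none of 7 CDS and 6 3′UTR clusters in replicate 1, and none of 8 and 3 in replicate 2, were called. Its highest 3′UTR log2FC in replicate 1, 3.08, equalled that of its leader but missed the threshold of the P value. In replicate 2 it was 1.85, against 3.92 in the leader. Both leader values came from sites whose centre also lay in an intron of another coding transcript of the gene. In Zdhhc5 the leader was called in 7 of 7 clusters in replicate 1 and 5 of 7 in replicate 2, with 2 of 24 and 1 of 18 in the CDS and 4 of 8 and 3 of 6 in the 3′UTR. BC048671 was called along the mRNA, with 9 of 9 and 8 of 8 clusters in the CDS and 1 of 1 and 2 of 2 in the 3′UTR. Tmem225 had its highest values in the CDS, with 6.25 and 5.66 against 3.82 and 3.54 in the leader.

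Leaders with an iron-responsive element or known upstream open reading frames gave too few clusters to set their share apart from that of all 5′UTR clusters, 5.08% and 8.62%. Among 6 mRNAs with an iron-responsive element in the 5′UTR, such as the ferritins, 0 of 6 clusters in replicate 1 and 0 of 3 in replicate 2 were called. Fth1, the ferritin heavy chain, had a highest leader log2FC of 0.56 in replicate 1 (224 IP and 257 SMInput reads) and 1.13 in replicate 2 (161 and 265), so its leader was well covered. Among 13 mRNAs known for upstream open reading frames, 1 of 17 clusters was called in replicate 1 (5.88%), in Azin1, and 0 of 19 in replicate 2. Fth1 and Azin1 were named after their values were seen.

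Leaders of the translation apparatus gave small counts of calls. Of the ribosomal protein mRNAs, many of which carry a pyrimidine tract at their cap, 4 of 60 5′UTR clusters were called in replicate 1 (6.67%) and 8 of 65 in replicate 2 (12.3%), beside 5.08% and 8.62% of all 5′UTR clusters. Rpl15 and Rpl31, of the large subunit, were called in both. Rpl31 had a log2FC of 2.76 (44 IP and 11 SMInput reads) and 2.89 (35 and 17) at chr1:39367911-39367934, plus strand, 10 bases from the centre to the start codon. Rpl15 had 3.57 (7 and 1) and 2.72 (11 and 6) at chr14:18270957-18270995, minus strand. Of genes with Eif and Eef symbols, which are initiation and elongation factors with some of their kinases, methyltransferases and binding proteins, 4 of 43 (9.30%) and 2 of 37 (5.41%) clusters were called, above the share of all 5′UTR clusters in replicate 1 and below it in replicate 2. Eif5a was the only one of these called at a shared site, with 2.41 and 2.29 at chr11:69920359-69920505, minus strand.

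Stored mRNAs of spermatids held 4 called of 34 leader clusters in replicate 1 (11.8%) and 5 of 27 in replicate 2 (18.5%), small counts beside the 5.08% and 8.62% of all 5′UTR clusters. Only Akap3, of the fibrous sheath of the sperm tail, was called in both, with 2.22 (11 IP and 4 SMInput reads) and 2.20 (14 and 11) at chr6:126853207-126853251, plus strand. Of 29 germ cell RNA regulators, 0 of 40 and 1 of 32 leader clusters were called, the 1 being that of Igf2bp3. Genes of histone exchange gave 1 of 20 and 0 of 17, with the 1 in Epc1, named after its value was seen. The m6A machinery gave 0 of 9 and 0 of 14, and chaperones and ubiquitin 0 of 11 and 0 of 8. In 3′UTRs the same germ cell regulators had 29.0% of 200 and 34.0% of 197 clusters called, and the m6A machinery 30 of 75 and 33 of 76, beside 19.5% and 34.6% of all 3′UTR clusters. A higher share in the 3′UTR than in the leader was thus common to these lists and to mRNAs as a whole.

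Leaders of cell type markers were too few to read their calls against the shares of all 5′UTR clusters, and none was called. Germ cell markers had 8 and 7 leader clusters, Sertoli cell markers 5 and 4, Leydig cell markers 3 and 3, and peritubular cell markers 5 in replicate 1 and 0 in replicate 2. In 3′UTRs, 19.5% and 34.6% of all clusters were called. The germ cell markers had 18 of 42 (42.9%) and 12 of 39 (30.8%) called there, the Sertoli cell markers 0 of 21 in each replicate, the Leydig cell markers 1 of 4 and 0 of 5, and the peritubular cell markers 0 of 4 and 0 of 2.

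The leader of Igf2, from which the family has its name, had 2 clusters in each replicate and no call. Its highest log2FC was 0.76 in replicate 1 (4 IP and 4 SMInput reads, chr7:142658920-142659022) and 2.11 in replicate 2 (6 and 5 reads, chr7:142658975-142659068), where the −log10(P value) of 1.75 was below the threshold. At this depth, enrichment of that size was not detectable. Igf2bp3 itself had a called leader cluster in replicate 2 only, with 3.26 and 8 IP and 3 SMInput reads (chr6:49214535-49214637), and 1.35 as its highest value in replicate 1. Igf2bp1 had no leader cluster in replicate 1 and 1 in replicate 2, at 0.63, and Igf2bp2 had none.

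Dot1l, a histone H3 methyltransferase, had 1 leader cluster in each replicate, at −0.96 (chr10:80755339-80755402) and −0.10 (chr10:80755309-80755410), while 8 of 9 and 5 of 7 of its 3′UTR clusters were called. The histone deacetylase gene Hdac11 had no leader cluster, with 7 of 9 and 5 of 6 called in the 3′UTR. Ybx2, a protein of stored germ cell mRNAs, had 0.65 (152 IP and 164 SMInput reads) and 0.23 (169 and 520) in its leader, so deep coverage of a germ cell mRNA did not bring a call there. Actb, the cytoplasmic actin, had 0.67 and 0.53.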

How the data were processed

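The authors trimmed adapters (cutadapt 4.5), removed reads from rRNA (Bowtie2 2.3.5.1), aligned reads to mm10 (STAR 2.7.10b), collapsed duplicates by molecular identifier and called clusters in each replicate (Clipper 2.1.2). The deposited tables list, per cluster, the authors' −log10(P value) of IP against SMInput, from 0 to 400, and their log2 fold change. There were 0 unused columns of sample values. Regions, genes and positions came from cluster centres and GENCODE M21, and windows from the mm10 genome.

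Each log2 fold change is a scaled ratio of whole read numbers, so library totals and reads were worked out from both listed values, with 1 solution for 99.9% of the clusters between the limits in replicate 1 and 99.8% in replicate 2. A cluster given with 1 SMInput read may have had none. Scripts ran on Python 3.11.15 with numpy 2.4.6, pandas 2.3.3 and scipy 1.17.1, and were tested on simulated data. Shares have 95% Wilson intervals.

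Members and lists were chosen with earlier results of these data known. The named genes were those of the 12 shared sites with the largest smaller log2FC, of the 5 with the most IP reads in the replicate with fewer, the 5 genes with the most shared sites, the 5 sites at 0 or below with the most SMInput reads, list members called in both replicates, and Dot1l, Hdac11, Ybx2, Igf2, Igf2bp1, Igf2bp2, Igf2bp3 and Actb. Alternatives changed thresholds, regions, transcripts, read minimums, overlaps and windows.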

Additional observations from a re-analysis of the deposited data

How the results depend on the processing

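No paired analysis was possible because each table already sets the IP against the SMInput of the same replicate, and no test between groups was run. Of 101 alternative values, 72 stayed within 1.5 times the main count or within the interval of the main value. Thresholds of 3 gave 84 and 88 called 5′UTR clusters (1.05% and 1.34%) and 18 shared sites. A log2FC threshold of 1 gave 816 and 1202 (10.2% and 18.4%) and 304 shared sites. An adjusted P value below 0.05 with a log2FC of at least 2 gave 3.61% and 7.79%. With at least 10 reads, 7.26% were called in replicate 1, the median log2FC was 0.66 and 0.85, and the 3′UTR lay above the 5′UTR in 80.7% and 83.1% of genes. With at least 30 reads the median was 0.62 and 0.72. With the highest value of each region, the 3′UTR lay above in 80.6% and 83.6% of genes. With whole clusters inside the 5′UTR, the median log2FC in replicate 2 was 1.01. From 1 replicate alone, sites numbered 358 to 512. In the bases of the cluster itself, CACA was 7.05 points more frequent in called than in other 5′UTR clusters of replicate 1, and in 100-base windows 8.46 points in replicate 2. The sign changed for 2 differences of replicate 1, and the causes were not tested. GAACA went from 0.01 to −0.99 points in 100-base windows, and GGAC from −4.55 to 0.21 points in the bases of the cluster. The fall of calls with GC content, a result chosen after seeing the data, kept its direction in all 4 alternatives, and with at least 10 reads the share below 60% GC exceeded the rest by 7.91 points in replicate 1, beside 4.41 points over all 5′UTR clusters. Depth limits the values of single leaders: 3 in 4 called clusters held at most 29 IP reads in replicate 1 and 22 in replicate 2.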
